A study of Mus musculus with 6 samples.

Results

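The genes described here are 10 genes of fatty acid uptake and oxidation, taken by their Ensembl identifiers from the 48505 genes of the deposited tables. They are the regulators *Ppara* (ENSMUSG00000022383), *Ppargc1a* (ENSMUSG00000029167) and *Esrra* (ENSMUSG00000024955), the uptake genes *Cd36* (ENSMUSG00000002944), *Fabp3* (ENSMUSG00000028773) and *Lpl* (ENSMUSG00000015568), the carnitine shuttle gene *Cpt1b* (ENSMUSG00000078937), and the oxidation genes *Acadm* (ENSMUSG00000062908), *Acadvl* (ENSMUSG00000018574) and *Hadha* (ENSMUSG00000025745). All 10 had reads in every library. Their symbols were given with the list, since the tables hold identifiers alone. The values come from immunoprecipitates (IP) made with an antibody against N6-methyladenosine (m6A), a methyl mark on RNA, from fetal hearts of wild-type FVB/NJ mice. Dams were 10 weeks old and breathed either filtered air (sham, 3 libraries) or engineered titanium dioxide nanoparticles (nano-TiO2, 3 libraries) at a target of 12 mg/m3. Exposure began on gestational day 5 and ran for 360 minutes on each of 6 non-consecutive days within 8 days, and hearts were taken on gestational day 15. Each library pooled hearts of both sexes. How the litters of the 14 dams were spread over the pools is not in the labels, so the p-values measure how far these 6 samples differ, which may be in part technical.

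The adult heart draws most of its energy from fatty acids, whereas the fetal heart relies more on glucose and lactate. Fatty acids are freed from circulating lipoproteins by lipoprotein lipase, enter the muscle cell through carriers such as CD36, are bound in the cytosol by FABP3, are passed into mitochondria on carnitine by CPT1B, and are shortened there by acyl-CoA dehydrogenases and the trifunctional protein. PPAR-alpha and ERR-alpha are nuclear receptors that bind the promoters of many of these genes, and PGC-1 alpha is their shared coactivator. Both kinds of receptor recognise the half-site AGGTCA.

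That half-site, read on both strands as AGGTCA or TGACCT, was looked for in RefSeq promoters (build GRCm38.p6, the 250 bases before the start site). It was present in 3 of the 8 genes that have an entry, and in 14.0% of all 32851 promoters. *Lpl* and *Cpt1b* have no entry. The 3 matches are shown because they are a feature of the genes that the list did not use; capitals mark the half-site, and each stretch is on the minus strand, at chr3:153944864-153944893 for *Acadm*, chr5:17836107-17836136 for *Cd36* and chr11:70015498-70015527 for *Acadvl*.
Acadm: gTGACCTtcgggctccggtgacactgggca
Cd36: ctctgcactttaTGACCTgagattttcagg
Acadvl: atggatcaccctAGGTCAggtagaatacag
The matches began 249, 228 and 87 bases before the start site. A match describes letters in this window and not a bound site.

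The tables give values in windows that mostly start 25 nucleotides apart. Windows were summed per gene to an IP level, in reads normalized by 1 size factor per library. The IP level rises with the amount of a transcript as well as with its methylation, and in these bulk samples fewer cells of a type cannot be told apart from less RNA per cell. The second deposited table, called adjusted, holds the same values divided by 1 factor per gene and library. It is not stated what that factor was made from. Libraries held 20205024 to 31523675 reads, of which the 10 genes took 0.235% ± 0.067 in sham libraries and 0.283% ± 0.055 in nano-TiO2 (SD, n = 3). The 4 most abundant genes of the tables, which are not among these 10, took 25.95% ± 8.1 of reads in sham libraries and 13.6% ± 5.1 in nano-TiO2 (SD, n = 3).

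Per window, the 10 genes covered a wide range of IP levels. *Fabp3* stood highest, at 971 normalized reads per window over the 6 libraries (1179 ± 425 in sham libraries and 764 ± 305 in nano-TiO2, SD, n = 3). *Cpt1b* (71.9) and *Acadvl* (70.7) followed, then *Acadm* (25.2), *Hadha* (21.6), *Cd36* (16.1), *Lpl* (6.52), *Esrra* (5.07), *Ppargc1a* (3.55) and *Ppara* (1.32). The order did not hold in every library for *Cpt1b* over *Acadvl*, *Acadm* over *Hadha* and *Hadha* over *Cd36* (4 of 6 libraries each), *Lpl* over *Esrra* (3 of 6) or *Esrra* over *Ppargc1a* (5 of 6). *Fabp3* alone supplied 51.8% ± 5.8 of the list's reads in sham libraries and 38.2% ± 7.0 in nano-TiO2 (SD, n = 3). At the other end, *Ppara* rested on 87 to 458 reads per library. Among all genes of the tables, *Fabp3* ranked at the 99.9th percentile of level per window and *Ppara* at the 69.9th.

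The main comparison asked which of these genes differed in IP level between nano-TiO2 and sham fetal hearts. *Lpl*, *Ppargc1a*, *Ppara* and *Acadm* were higher in nano-TiO2, by 2.64-fold, 2.36-fold, 2.28-fold and 1.80-fold, and the other 6 did not pass the test. Thus 4 of 10 rose and 0 fell at an adjusted p of 0.05 (limma on log2(value + 1), fitted on 18566 genes). Over all genes tested 36.0% were called, 24.0% as rises and 12.0% as falls. The median log2 change of the 10 genes was 0.19, against 0.13 for all genes tested. With library totals made equal leaving out the 4 most abundant genes, the same 4 rose, by 1.67 (*Lpl*), 1.51 (*Ppargc1a*), 1.46 (*Ppara*) and 1.12 (*Acadm*) on the log2 scale, and 33.9% of all genes rose. With so many genes called across the tables, a count of 4 in 10 is near the background.

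Changes in IP level went with gene length, here the number of windows. Over all genes tested, the median log2 change went from -0.48 in the shortest genes (8 to 51 windows) to 0.81 in the longest (265 or more), where genes were put in 5 groups of about equal size. *Fabp3*, with 32 windows, lay in the shortest group, and *Lpl* (419) and *Hadha* (349) in the longest. Of the genes that rose, *Ppara* (153) and *Acadm* (156) lay in the middle group, where the median was 0.11. *Cd36* and *Cpt1b*, which did not pass, lay there too. Spearman's rho between windows and log2 change was 0.64 across these 10 genes and 0.55 across all 18566, as a description across genes, which are not replicates. With that trend removed from each library, none of the 4 rises passed: the log2 changes were 0.98 for *Ppara* (adjusted p = 0.088), 0.71 for *Ppargc1a* (adjusted p = 0.12), 0.63 for *Acadm* (adjusted p = 0.17) and 0.57 for *Lpl* (adjusted p = 0.18, limma). In that fit 3 others fell: *Esrra* (-0.71, adjusted p = 0.027), *Hadha* (-0.61, adjusted p = 0.028) and *Cpt1b* (-0.45, adjusted p = 0.047, limma), while 24.1% of all genes were called.

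**Figure D1:**
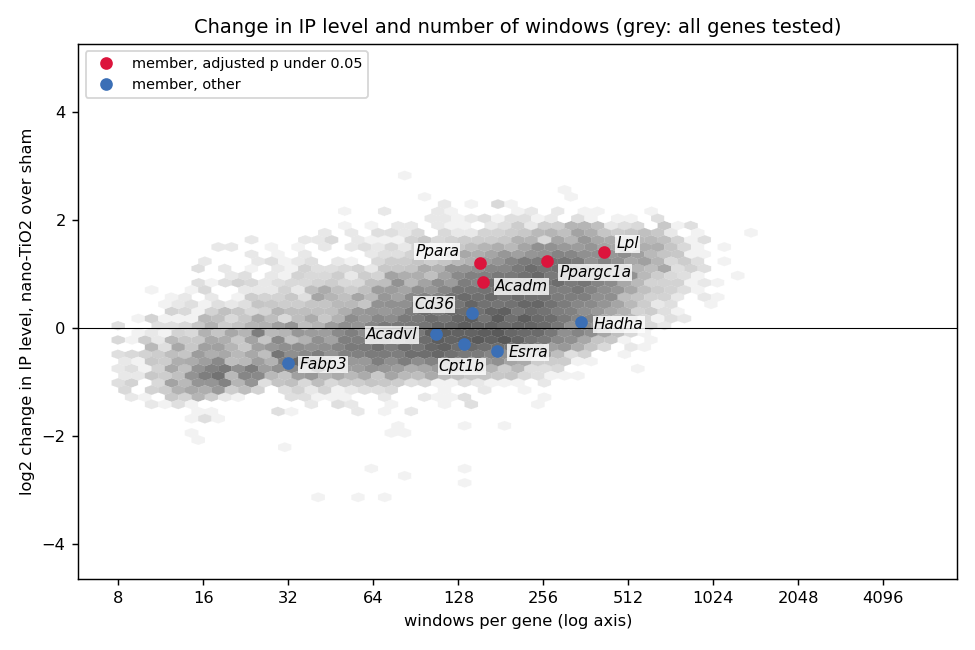
The vertical axis is the log2 change in IP level, nano-TiO2 over sham, and the horizontal axis the number of windows per gene (log scale); grey hexagons are all 18566 genes tested, darker where there are more, and points are the 10 genes, red where the adjusted p was under 0.05. *Lpl*, with 419 windows, has the highest change of the 10 (1.40) and *Fabp3*, with 32, the lowest (-0.66), while *Hadha* lies near 0 (0.10) with 349.

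Among the regulators, *Ppara*, the fatty acid-activated nuclear receptor, had 78.3, 129 and 154 normalized reads in sham libraries, in the order of replicates 1, 2 and 3 that is kept for every gene, and 321, 158 and 369 in nano-TiO2 libraries. The groups did not overlap, but nano-TiO2 replicate 2 lay close to the highest sham library. The log2 change was 1.19 ± 0.36 (SE, adjusted p = 0.029, limma). It did not pass when sham replicate 1 (0.91, adjusted p = 0.098), sham replicate 2 (1.27, adjusted p = 0.055), nano-TiO2 replicate 1 (1.05, adjusted p = 0.077) or nano-TiO2 replicate 3 (0.95, adjusted p = 0.11, limma) was left out. After quantile normalization it was 0.82 (adjusted p = 0.11, limma).

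*Ppargc1a*, the coactivator that drives mitochondrial biogenesis, had 386, 619 and 639 normalized reads in sham libraries and 1714, 833 and 1403 in nano-TiO2. Every nano-TiO2 library lay above every sham library, with replicate 2 again the lowest of its group. The log2 change of 1.24 ± 0.29 (SE, adjusted p = 0.011, limma) passed with each library left out in turn (1.00 to 1.53).

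*Esrra*, the orphan receptor ERR-alpha, had 928, 1166 and 973 normalized reads in sham libraries and 678, 635 and 976 in nano-TiO2. Here nano-TiO2 replicate 3 reached into the sham range. The log2 change was -0.44 ± 0.19 (SE, adjusted p = 0.11, limma). Leaving out nano-TiO2 replicate 3, the gene fell, by 0.63 on the log2 scale (adjusted p = 0.040, limma), and it fell with DESeq2 on recovered reads (-0.55, adjusted p = 0.031). Over all genes tested 8.6% fell without that library and 18.8% with DESeq2. With any other library left out *Esrra* did not pass (adjusted p = 0.14 to 0.28, limma), and it passed in 3 of 19 alternatives. In the RefSeq table *Esrra* overlaps *Trmt112*, and the sources used here do not give whether counting used strand, so its level is uncertain.

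Among the uptake genes, *Lpl*, the lipase at the capillary wall, had the largest change of the 10. It had 1092, 1467 and 1895 normalized reads in sham libraries and 4948, 2501 and 4498 in nano-TiO2. The groups stood clearly apart, with means of 1484 ± 402 and 3982 ± 1300 (SD, n = 3). The log2 change was 1.40 ± 0.28 (SE, adjusted p = 0.0058, limma) and passed with each library left out (1.20 to 1.70). It lay at the 93.8th percentile of the changes of all genes tested.

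*Cd36*, the membrane fatty acid carrier, had 1038, 1605 and 3736 normalized reads in sham libraries and 3791, 1209 and 2428 in nano-TiO2. Its libraries differed widely within both groups, and the groups overlapped. Its log2 change was 0.28 ± 0.50 (SE, adjusted p = 0.70, limma), with a 95% interval of -0.86 to 1.41. Leaving out any 1 of 4 libraries turned its direction or more than doubled it: it was -0.13 without sham replicate 1 and 0.79 without sham replicate 3, and leaving out nano-TiO2 replicates 1 and 2 in turn gave -0.10 and 0.72.

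*Fabp3*, the heart's cytosolic fatty acid binding protein, had 31389, 28426 and 53333 normalized reads in sham libraries and 31622, 13337 and 28385 in nano-TiO2. Sham replicate 3 was far above and nano-TiO2 replicate 2 far below the other 4 libraries, which lay between 28385 and 31622. On the log2 scale it differed by -0.66 ± 0.35 (SE, adjusted p = 0.17, limma). It was -0.39 without sham replicate 3, and leaving out nano-TiO2 replicate 2 gave -0.27. In the RefSeq table *Fabp3* overlaps *Zcchc17*, which leaves its level uncertain in the same way.

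*Cpt1b*, the muscle form of the enzyme that loads long-chain fatty acids onto carnitine, had 10188, 10165 and 11678 normalized reads in sham libraries and 8811, 8969 and 8035 in nano-TiO2. All 3 nano-TiO2 libraries lay below all 3 sham libraries, and no other gene of the 10 had so small a spread within groups. *Cpt1b* had a log2 change of -0.31 ± 0.13 (SE, adjusted p = 0.094, limma), and its direction turned with scaling, to 0.16 after quantile normalization and 0.19 with equal library totals. It fell with DESeq2 (-0.45, adjusted p = 0.018) and when arrays were weighted by quality (-0.36, adjusted p = 0.013, limma). Over all genes tested 18.8% fell with DESeq2 and 18.6% with the weights. The weights were 7.23 for nano-TiO2 replicate 3, the lowest library of *Cpt1b*, and 0.387 to 1.24 for the others. A non-coding gene, *Gm44502*, overlaps *Cpt1b* in the RefSeq table.

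The oxidation genes did not move together. *Acadm*, the medium-chain acyl-CoA dehydrogenase, had 2049, 2655 and 3667 normalized reads in sham libraries and 6386, 3256 and 5607 in nano-TiO2. Nano-TiO2 replicate 2 lay below sham replicate 3, so the groups overlapped. *Acadm* rose by 0.85 ± 0.28 on the log2 scale (SE, adjusted p = 0.044, limma). It did not pass when sham replicate 1 (0.65, adjusted p = 0.15), sham replicate 2 (0.83, adjusted p = 0.10), nano-TiO2 replicate 1 (0.66, adjusted p = 0.12) or nano-TiO2 replicate 3 (0.75, adjusted p = 0.13, limma) was left out, with TMM scaling (adjusted p = 0.062) or with edgeR (adjusted p = 0.055).

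*Acadvl*, the very-long-chain acyl-CoA dehydrogenase, had 6933, 7856 and 8865 normalized reads in sham libraries and 7479.6, 6455 and 7812 in nano-TiO2. Its groups overlapped, with a log2 change of -0.12 ± 0.15 (SE, adjusted p = 0.56, limma; 95% interval -0.45 to 0.21). *Hadha*, the alpha subunit of the trifunctional protein that carries out the later steps on long chains, had 6123, 7927 and 7805 in sham libraries and 7841, 6733 and 8876 in nano-TiO2. Its groups overlapped too, with a log2 change of 0.10 ± 0.16 (SE, adjusted p = 0.66, limma; 95% interval -0.26 to 0.47). *Hadha* rose with equal library totals (0.60, adjusted p = 0.016) and after quantile normalization (0.50, adjusted p = 0.031, limma). With equal totals the median log2 change of all genes tested was 0.61, and 43.1% of them rose. After quantile normalization that median was -0.054, and 16.6% rose.

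**Figure D2:**
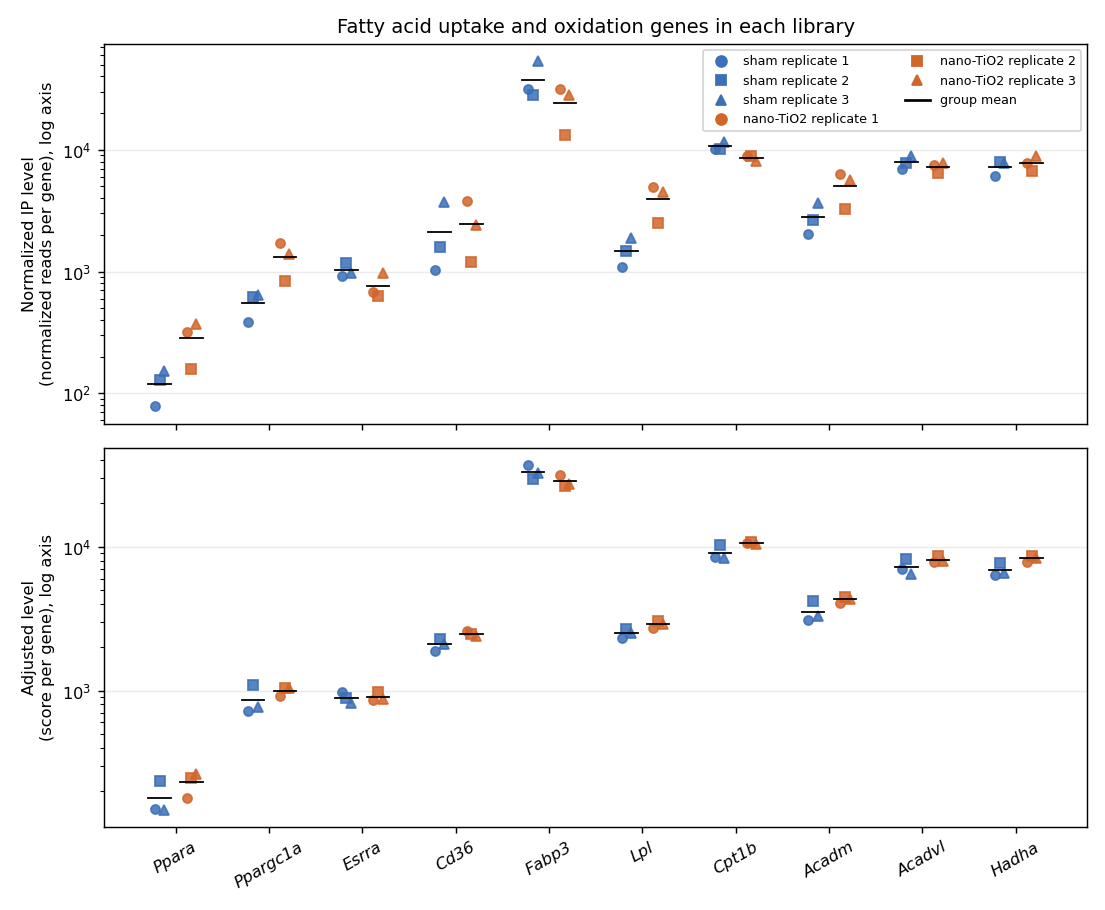
Each point is 1 library's level of 1 gene, on log axes, with sham in blue, nano-TiO2 in orange, marker shapes for replicates and black bars for group means of 3; the upper panel gives normalized reads and the lower panel the adjusted score. In the upper panel *Ppara*, *Ppargc1a* and *Lpl* have all nano-TiO2 points above all sham points, and in the lower panel the points of *Cd36* and *Fabp3* draw together.

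Libraries of one group differed in the same direction across most of the list. In IP level, 3 of 10 genes had all nano-TiO2 libraries above all sham libraries, 1 had them below and 6 overlapped; over all genes tested 49.5% did not overlap, 30.9% above and 18.5% below. Sham replicate 1 was the lowest of its group in 8 of the 10 genes, and sham replicate 3 the highest in 8. Nano-TiO2 replicate 2 was the lowest of its group in 9 of 10, the exception being *Cpt1b*. How often all genes took such an order, on any scale, was not counted. The within-group SD of the log2 level had a median of 0.47 over the 10 genes, against 0.28 over all genes tested, and was largest in *Cd36* (0.89) and smallest in *Cpt1b* (0.10).

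On the authors' adjusted scale the spread within groups was smaller for 9 of the 10 genes. In *Cpt1b* it went from 0.10 to 0.11 and in *Acadvl* from 0.16 to 0.13. The median within-group SD of the log2 level was 0.13 over the 10 genes and 0.25 over all genes tested, and that of *Cd36* was 0.11. *Cd36* had adjusted scores of 1894, 2288 and 2092 in sham libraries and 2607, 2456 and 2389 in nano-TiO2, now with every nano-TiO2 library above every sham library. *Fabp3* had 37157, 29545 and 32368 in sham libraries and 31413, 26653 and 27330 in nano-TiO2. The order of libraries was another one here: sham replicate 2 was the highest of its group in 8 of the 10 genes. Nano-TiO2 replicate 2, most often the lowest in IP level, was the highest of its group in 7. The adjusted values are made from the IP values, so the scales are not independent.

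None of the 10 genes passed in adjusted level (0 of 10, limma), and 0% of the 19361 genes tested did. At an unadjusted p under 0.05 there were 6 of the 10, *Cd36*, *Lpl*, *Cpt1b*, *Acadm* and *Hadha* on the higher side and *Fabp3* on the lower, against 18.6% of all genes. That count was 0 with the length trend removed (10.9% of all genes) and 1 with TMM scaling (14.4%, limma). Without sham replicate 2 it was 9 (30.3%, limma). The median log2 change was 0.24 over the 10 genes and 0.17 over all genes tested. Over all genes it went from -0.058 in the shortest group to 0.31 in the longest. Without sham replicate 2, 4 genes rose, *Ppargc1a* (0.42, adjusted p = 0.045), *Cpt1b* (0.33, adjusted p = 0.028), *Acadm* (0.43, adjusted p = 0.028) and *Hadha* (0.36, adjusted p = 0.028, limma), while 8.32% of all genes rose and 1.38% fell. Weighting arrays by quality instead, 7 rose and *Fabp3* fell, and 22.5% of all genes rose and 3.43% fell. That weighting gave nano-TiO2 replicate 3 a weight of 4.46 and sham replicate 2 a weight of 0.368.

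The rises seen in IP level were smaller after adjustment. *Lpl* had adjusted scores of 2336, 2678 and 2501 in sham libraries and 2718, 3022 and 2907 in nano-TiO2. These groups still did not overlap, and the log2 change was 0.20 ± 0.091 (SE, adjusted p = 0.27, limma), with a 95% interval of 0.0017 to 0.40 that lies below its IP change of 1.40. *Ppargc1a* had 722, 1096 and 768 in sham libraries and 915, 1044 and 1038 in nano-TiO2 (0.24 ± 0.16 SE, adjusted p = 0.43, limma). *Ppara* had 150, 236 and 148 against 180, 248 and 264 (0.39 ± 0.23 SE, adjusted p = 0.38, limma). For both, sham replicates 1 and 3 lay below all nano-TiO2 libraries and sham replicate 2 did not. *Acadm* had 3081, 4181 and 3290 against 4075, 4458 and 4358 (0.30 ± 0.11 SE, adjusted p = 0.22, limma).

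*Cpt1b* had its groups on opposite sides of each other on the 2 scales. Its adjusted scores were 8529, 10241 and 8417 in sham libraries and 10610, 10838 and 10438 in nano-TiO2. All nano-TiO2 libraries were above all sham libraries, where in IP level they were below. The adjusted log2 change was 0.24 ± 0.087 (SE, adjusted p = 0.21, limma). *Hadha* went from 6383, 7768 and 6581 in sham libraries to 7881, 8672 and 8361 in nano-TiO2, again without overlap (0.27 ± 0.090 SE, adjusted p = 0.20, limma). *Acadvl* had adjusted scores of 7005, 8164 and 6487 against 7836, 8666 and 7931, which overlapped. *Esrra* had 976, 885 and 818 against 863, 985 and 877, with a log2 change of 0.026 (adjusted p = 0.92, limma). In all, 4 genes lay above without overlap and 0 below, against 19.4% and 2.96% of all genes.

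**Figure D3:**
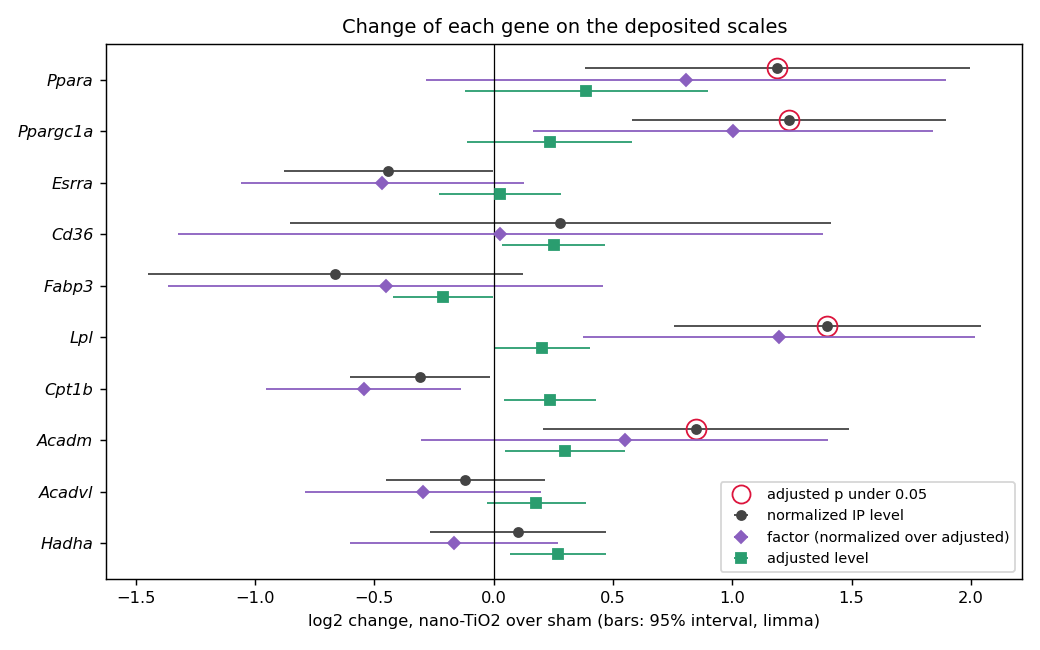
The horizontal axis is the log2 change, nano-TiO2 over sham, of each gene on 3 scales: normalized IP level (grey circles), the factor between the deposited tables (purple diamonds) and adjusted level (green squares). Bars are 95% intervals from limma over 3 against 3 libraries, and red rings mark an adjusted p under 0.05, which only 4 IP levels have. The intervals of the adjusted level are narrower than those of the IP level for all 10 genes.

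The factor that separates the tables was compared in the same way. For *Lpl* it was 0.469, 0.548 and 0.761 in sham libraries and 1.83, 0.828 and 1.56 in nano-TiO2. This was the only gene of the 10 whose factor was higher in all nano-TiO2 libraries, and *Cpt1b*, with 1.19, 0.993 and 1.39 against 0.830, 0.828 and 0.770, the only one lower in all. Over all genes tested 18.8% lay above and 23.7% below without overlap. The factor of 0 of the 10 genes passed the test, against 11.2% of 18453 genes (limma), and 3 had an unadjusted p under 0.05, against 36.6%. The closest were *Lpl* (log2 change 1.20 ± 0.34 SE, adjusted p = 0.064), *Cpt1b* (-0.55 ± 0.17 SE, adjusted p = 0.075) and *Ppargc1a* (1.00 ± 0.35 SE, adjusted p = 0.095, limma). The factor was also recovered from the rounding of windows, an alternative chosen after seeing the data. *Lpl* then rose (1.20, adjusted p = 0.032) and *Cpt1b* fell (-0.55, adjusted p = 0.041, limma), with changes almost the same as before. This alternative kept only genes whose factor was bounded to within 20% in every library, and 31.1% of those 13626 genes were called. With array quality weights *Lpl*, *Ppargc1a* and *Ppara* rose and *Cpt1b* fell, and 30.0% of all genes were called.

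Sham replicate 3 had the highest factor of its group in 9 of the 10 genes and nano-TiO2 replicate 2 the lowest in 9. For *Cd36* the factor was 0.548, 0.702 and 1.79 in sham libraries and 1.46, 0.493 and 1.02 in nano-TiO2, with group means of 1.01 and 0.988. For *Fabp3* it was 0.845, 0.962 and 1.65 in sham libraries and 1.01, 0.50 and 1.04 in nano-TiO2. In *Fabp3* the highest and the lowest factor belong to the libraries with the highest and the lowest IP level.

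**Figure D4:**
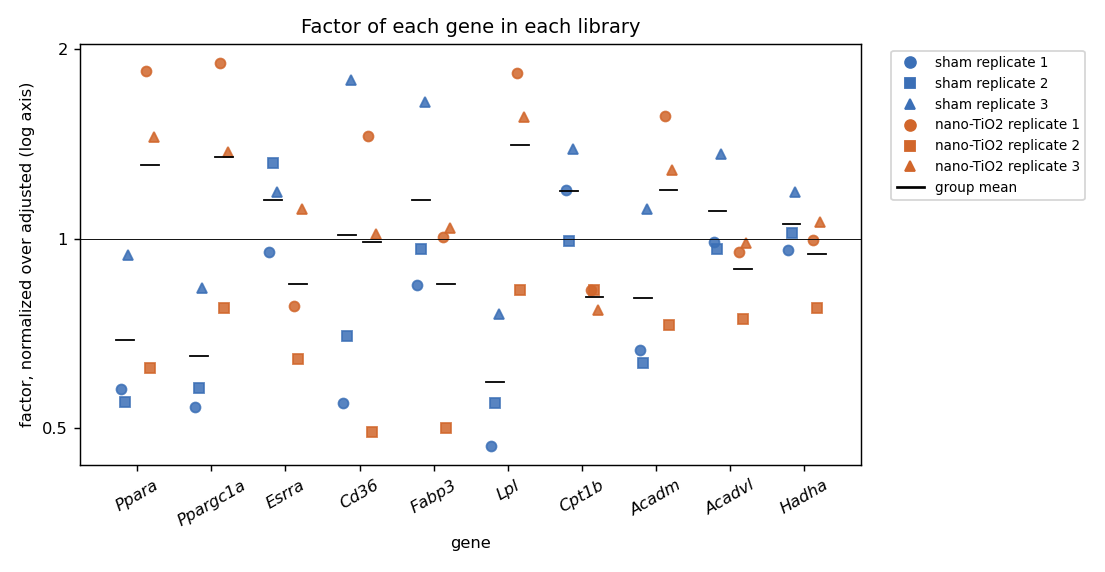
The vertical axis (log scale) is the factor, normalized over adjusted value, of each gene in each library, with sham in blue, nano-TiO2 in orange, marker shapes for replicates and black bars for the group means of 3. *Lpl* has all nano-TiO2 points above its sham points, *Cpt1b* all below, and the other 8 genes overlap.

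The next question was where along each gene the IP signal lay. Windows are given in the deposited numbering, and which end is the 3′ end was not established. Of the 10 genes, 9 had windows that averaged 10 or more normalized reads and *Ppara* had none. In *Cpt1b* (starts 148 to 2998), *Fabp3* (1 to 676) and *Cd36* (841 to 3391) such windows formed 1 stretch that held 99.99%, 99.997% and 95.9% of the gene's signal. *Acadm* and *Hadha* had 6 stretches each, *Lpl* 5, and *Esrra*, *Acadvl* and *Ppargc1a* 2 each. Between its stretches the signal of *Lpl* was close to none, with 63.0% of its windows under a mean of 1, and the same held for 65.6% of the windows of *Hadha*. *Esrra* had 71.9% of its signal between starts 140 and 1115. *Ppargc1a* was spread thinly, with 9.25% of its signal in such stretches.

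The called windows lay mainly in *Lpl* and *Acadm*. Of 675 windows tested in the list, 100 rose and 2 fell at an adjusted p of 0.05 (limma, over 250317 windows of all genes, of which 3.88% rose and 7.32% fell, 11.2% in all). *Lpl* had 74 of 114 windows called higher and *Acadm* 24 of 78. *Ppargc1a* had 2 of 6 higher and *Cpt1b* 2 of 115 lower. Windows of a gene share its level, so these counts are not independent. Leaving out sham replicate 1 brought the total of 102 to 34 (4.84% of all windows were then called), and sham replicate 2 to 53 (7.14%). Leaving out nano-TiO2 replicate 1 brought it to 19 (5.26%), and replicate 3 to 22 (5.49%). Among the 320 windows with a mean of at least 50 it was 27, 18 higher and 9 lower, where 4.31% of all 57169 such windows rose and 34.8% fell. In adjusted level 0 of 674 windows passed, against 0.00316% of all windows (limma), and 101 had an unadjusted p under 0.05, against 9.71% of all.

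In *Lpl* the stretch from 6551 to 8301 held 63.8% of the gene's signal and 54 of its called windows. It went from 927 ± 268 normalized reads in sham libraries to 2561 ± 822 in nano-TiO2 (SD, n = 3). In adjusted score the same stretch went from 1557 ± 55 to 1852 ± 132 (SD, n = 3). The window of *Lpl* with the smallest p, at 6976, had 6.30, 9.86 and 9.46 normalized reads in sham libraries and 50.2, 32.3 and 43.5 in nano-TiO2 (log2 change 2.17 ± 0.32 SE, adjusted p = 0.0053, limma). The smaller stretches of *Lpl* were higher in nano-TiO2 as well. The one from 101 to 226 went from 42.7 ± 12.3 to 148 ± 35 and the one from 3926 to 4051 from 48.7 ± 14.7 to 159 ± 62. The last, from 9126 to 10076, went from 353 ± 111 to 797 ± 344 normalized reads, and in adjusted score from 595 ± 121 to 559 ± 103 (SD, n = 3).

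In *Acadm* the stretch from 139 to 1114 held 59.4% of the signal and went from 1668 ± 486 to 3011 ± 1040 normalized reads (SD, n = 3), with 10 of its windows called. All 6 stretches held at least 1 called window, and all 78 tested windows had a change above 0. In *Ppargc1a* the 2 called windows, at 4068 and 4093, lay just after its highest window, at 4043. At 4093 it had 2.70, 5.48 and 2.70 normalized reads in sham libraries and 23.4, 11.6 and 19.3 in nano-TiO2 (log2 change 2.05 ± 0.51 SE, adjusted p = 0.019, limma). In *Cpt1b* the 2 windows that fell, at 523 and 723, lay before its highest window, at 798. At 523 it had 126, 134 and 146 normalized reads in sham libraries and 79.2, 72.8 and 93.4 in nano-TiO2 (-0.72 ± 0.20 SE, adjusted p = 0.028, limma). In *Fabp3* all 28 tested windows had changes between -0.75 and -0.52, and 0 passed.

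The shape of the signal within each gene was compared next. No window of the 10 genes was called as moving against the rest of its gene (0 of 675, diffSplice in limma), against 0.0465% of all windows tested, and 5 had an unadjusted p under 0.05, against 3.26% of all. With windows down to a mean of 1 included, 2 windows of *Hadha* were called, at 8531 (1.47, adjusted p = 0.0051) and 8706 (1.79, adjusted p = 6.27e-05, limma). These were 2 of the 1143 windows of the list tested in that setting, where 0.0641% of all windows were called. At 8706 there were 0, 1.10 and 0 normalized reads in sham libraries and 4.46, 7.45 and 1.61 in nano-TiO2, which is a handful of reads. The share of a gene's signal in the last 25% of its windows was also compared. It differed in 0 of 10 genes, against 0.105% of 14220 (limma), and 0 of the 10 had an unadjusted p under 0.05, against 13.3% of all. In *Lpl* that share was 40.8% ± 5.2 in sham libraries and 37.1% ± 5.6 in nano-TiO2, and in *Esrra* 5.34% ± 1.4 and 7.21% ± 1.1 (SD, n = 3).

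**Figure D5:**
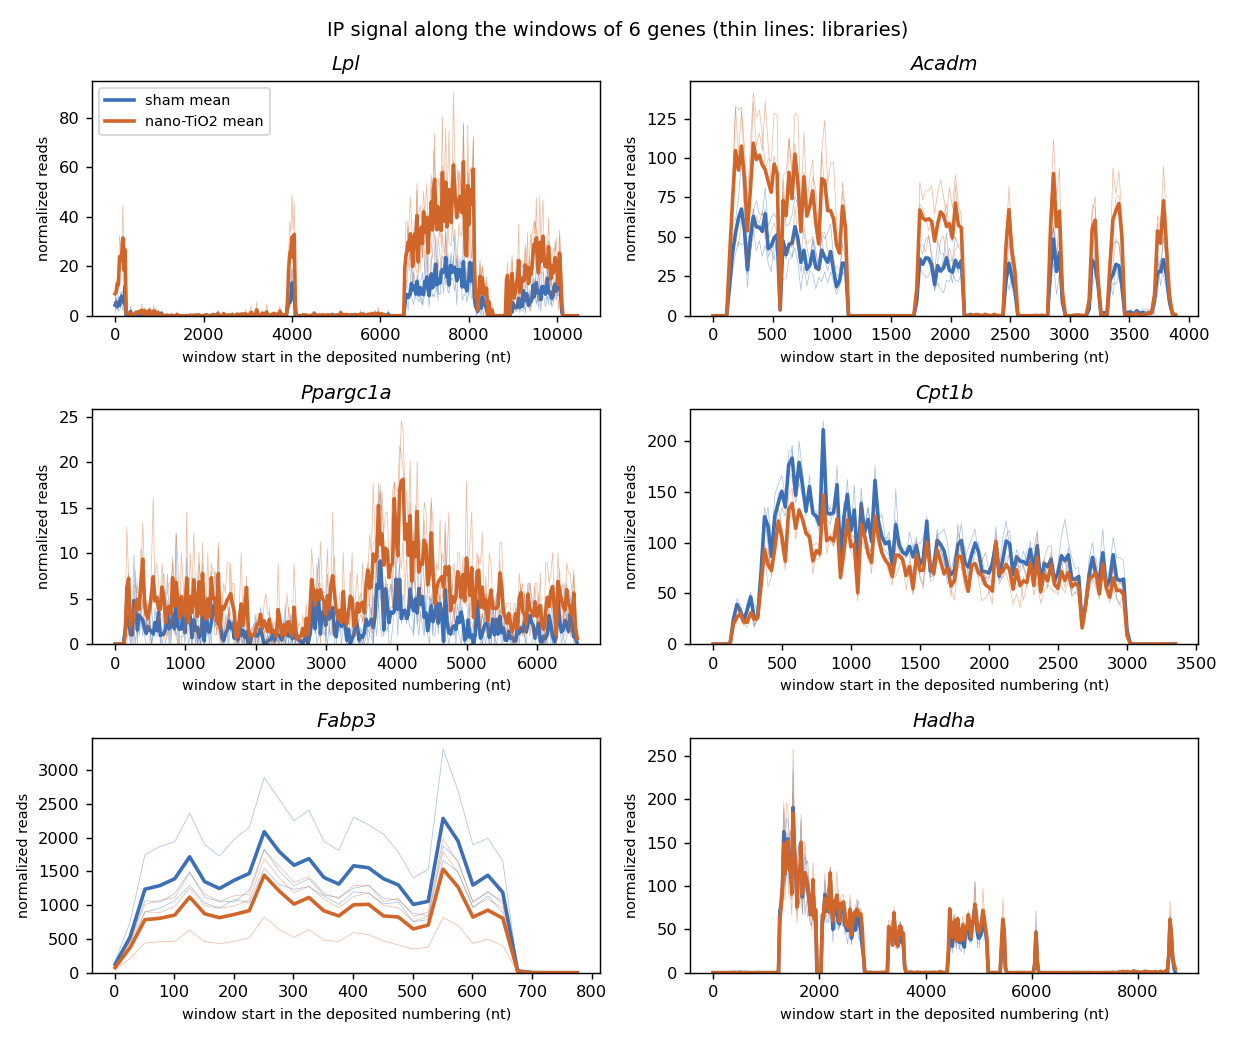
Each panel gives normalized reads (vertical axis) by window start in the deposited numbering (horizontal axis, nucleotides) for 1 gene, with thin lines for libraries and thick lines for the means of 3, sham in blue and nano-TiO2 in orange. The nano-TiO2 mean lies above the sham mean in all stretches of *Lpl* and *Acadm*, mostly below it along *Cpt1b* and *Fabp3*, and close to it along *Hadha*.

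More windows of some genes held at least 1 read in nano-TiO2. *Lpl* had a read in 159 to 170 of its 419 windows in sham libraries and in 202 to 222 in nano-TiO2 libraries. For *Ppargc1a* the ranges were 185 to 198 and 232 to 251 of 263, and for *Ppara* 56 to 74 and 91 to 121 of 153. *Hadha*, whose level did not pass the test, went from 125 to 133 windows in sham libraries to 147 to 152 of 349 in nano-TiO2. *Acadm* also lay higher without overlap, at 89 to 92 and 95 to 98. The groups overlapped for the other 5 genes. Over all genes tested for IP level, 36.7% had more windows with a read in every nano-TiO2 library than in any sham library. These counts were not tested and move with depth and level.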

How the data were processed

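Hearts were sampled in 3 sham and 3 nano-TiO2 pools, and the sample titles gave each library its group and replicate number. Total RNA (3 µg) was fragmented, per the labels' protocols, to 250 to 350 nucleotides, bound to 5 µg of anti-m6A antibody and amplified over 10 and 8 PCR cycles. The submitters' processing notes name DESeq2 1.34.0, HISAT2 2.2.1, Salmon 1.5.2 and the build GRCm39, with no role. How windows were made and whether strand was used are not given in the sources used here. The deposited normalized table holds a signal per window, and its values were whole multiples of 1 step per library in 100% of cases (tolerance 0.0001), so reads were recovered from it. In the adjusted table the deposited values are scores in whole numbers, equal in all 162014 gene and library pairs to the normalized values over 1 factor, rounded. The third table was identical to the normalized one and was not used.

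Windows were summed per gene. The main test was limma 3.58.1 with a trend (R 4.3.3), two-sided and without covariates, on log2(value + 1) of genes or windows averaging at least 10, and p-values were adjusted by Benjamini-Hochberg over the whole table (threshold 0.05); this scale understates changes of low genes. The factor was fitted as the ratio of the gene's sums, like the last-quarter share (genes with a mean of at least 50 and 8 windows), without a trend. The factors given and plotted per library are instead midpoints of the range that the rounding of windows allows. The shares of all genes whose factors did not overlap use ratios of sums. The edgeR 4.0.16 and DESeq2 1.42.0 tests on recovered reads were alternatives, as were other scalings, filters, pseudocounts, weights, a block on replicate number and leaving out each library. The main test did not pair libraries by replicate number.

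All 10 genes of the list are named, each with its highest window and its window of smallest p where these bear on a result. The list and the tests were chosen with earlier results of these data known. The RefSeq gene table at hand (GRCm38.p6) holds 0 Ensembl identifiers, so further genes of the pathway and markers of heart and other cell types could not be named or tested, and overlaps between genes and promoters were looked up there by symbol. Counting intervals are not given, since PCR copies are not independent molecules. Input libraries were not analysed here.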

Additional observations from a re-analysis of the deposited data

How the results depend on the processing

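The count of genes called in IP level was 4 (36% of all genes), and 2 to 4 with each library left out (25.7% to 32.5%). It was 3 to 6 in the other settings (19% to 50.5%), but with the length trend removed the 3 called were falls. With DESeq2 there were 4 rises and 2 falls (*Esrra* and *Cpt1b*), where 20.6% of all genes rose and 18.8% fell. *Lpl* and *Ppargc1a* each passed in 18 of 19 alternatives, *Acadm* in 12 of 19 and *Ppara* in 12 of 18. Scaling moved the median log2 change of all genes tested from 0.13 to -0.054 (quantile), 0.39 (totals made equal leaving out the 4 most abundant genes) and 0.61 (equal totals), and the share of calls that were rises from 66.7% to 52.3%, 86.2% and 97.9%; it was 47.2% with the length trend removed. With the median of a gene's windows it was 26.0% (median log2 change -0.24), and 3 of the 9 genes fitted rose against 8.26% of genes. IP directions turned for *Esrra* (0.055, equal totals), *Cpt1b* (0.16 quantile, 0.19 equal totals), *Acadvl* (0.29 quantile, 0.38 equal totals, 0.15 leaving out the 4 most abundant genes) and *Hadha* (-0.61 with the length trend removed, -0.025 with DESeq2). With libraries left out they also turned for *Cd36* (-0.13 to 0.79) and *Hadha* (-0.018 to 0.21). In adjusted level 0 to 4 genes were called with libraries left out (0% to 9.7% of all genes), and 8 with array quality weights (25.9%). Adjusted directions turned for *Ppargc1a* (-0.044), *Lpl* (-0.12) and *Hadha* (-0.038) with the length trend removed and for *Esrra* with quantile normalization (-0.11), TMM (-0.13), array quality weights (-0.050) and the length trend removed (-0.20), and with libraries left out (-0.036 to 0.092). The factor of *Cd36* turned with libraries left out (-0.32 to 0.54). Array quality weights called 4 factors (30% of all genes), and interval recovery, added after seeing the data, 2 (31.1%). Called windows went from 102 (11.2% of all windows) to 19 to 150 with libraries left out (4.84% to 8.65%). They went to 27 at a mean of at least 50 (39.1%). Within genes 2 were called at a mean of at least 1 (0.0641%). With the last 10% of windows in place of the last 25%, the share turned for *Ppara* (0.35) and *Cd36* (-0.085). For *Fabp3* that setting gave 0.66, which is its IP change of -0.66 with the sign turned. The measure gives this where the last windows hold no reads, so it says nothing about the share. With libraries left out the last-quarter share turned for *Ppara* (-0.30 to 0.0032), *Cd36* (-0.051 to 0.17), *Fabp3* (-0.033 to 0.020), *Cpt1b* (-0.031 to 0.18) and *Acadm* (-0.10 to 0.037). The causes of these changes were not tested.

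Replicate numbers gave correlations of -0.37, 0.18 and 0.024 for the 3 same-numbered pairs. The levels were centred within groups of 3, so these values constrain each other. They cannot decide whether same-numbered libraries share a batch. With a replicate block 5 genes were called in IP level, 4 higher and *Fabp3* lower (adjusted p = 0.048, limma), where 22.6% of all genes were higher and 12.0% lower. It called 142 windows, 120 higher and 22 lower, and 12.7% of all windows. The block gave 0 calls in adjusted level, the factor, adjusted windows, windows within genes and the last-quarter share. Low depth limits *Ppara* most, with 1256 reads over the 6 libraries.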
